A study of Drosophila melanogaster with 6 samples.

Results

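The genes described here are the selector transcription factors of the Drosophila melanogaster eye, antenna, leg and wing discs: hth, exd, tsh, Dll, dac, ey, toy, so, eya and ap. They were taken by gene symbol from the expression table of each library, and all 10 were found among the 16508 genes listed there. The RNA-seq libraries hold polyadenylated RNA of whole instar 3 larvae, with 40 larvae pooled per library. Of the 6 libraries, 3 are labelled wild-type (Oregon) and 3 are labelled crol-KO. Crol, a C2H2 zinc finger protein, recognises poly(G)-rich DNA and takes part in Polycomb recruitment, and the comparison asks how transcription differs in larvae that lack it. The knockout allele was made by CRISPR/Cas9 homologous recombination with a DsRed marker, in y w1118 stocks that carried Cas9 under the Act5C promoter and a DNAlig4 mutation, and was kept over a CyO balancer with Tb and w+ markers. Strain and genotype therefore cannot be told apart, and the age of the larvae within the instar was not given. Some Crol protein remains in mutant larvae, which limits how complete the loss is at this stage. The authors suspect that the remaining protein is of maternal origin.

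Selector genes encode DNA-binding proteins or their partners that give a field of cells its identity. The imaginal discs are epithelial sacs that grow in the larva and form the adult head and appendages. In them Hth and nuclear Exd mark the proximal parts of the limbs, Dac the middle and Dll the distal part. Toy and Ey, both Pax6 proteins, start the eye program, which Eya, So and Dac carry on. Ap sets the dorsal compartment of the wing disc. Most of these genes are also used in the larval nervous system, so that RNA from a whole larva adds up several tissues, and fewer cells of a type cannot be told apart from less RNA per cell. Several of these genes, hth among them, are known as targets of Polycomb repression.

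The libraries held 23637969 to 49236787 expected counts. The labels were checked first on crol itself and on w, the eye pigment transporter gene that is mutant in the stock used to make the knockout. The level of crol was 63.3, 60.6 and 73.2 CPM (counts scaled to 1000000 per library, after TMM normalization) in the wild-type-labelled libraries and 42.8, 39.1 and 37.0 CPM in the crol-KO-labelled ones. The level of w was 0.817, 0.623 and 0.561 CPM in the wild-type-labelled libraries and 15.2, 16.6 and 17.9 CPM in the crol-KO-labelled ones. The crol log2 fold change was -0.73 (adjusted p = 0.0043 in edgeR's quasi-likelihood test) but -0.10 (adjusted p = 0.76) under the correction for transcript length described below, and 747 to 1664 counts of crol remained in each crol-KO-labelled library. The higher w level in the crol-KO-labelled libraries goes against the labels as far as the stock is concerned, and each table is named for the opposite genotype. Every direction below is therefore given for the libraries as labelled in their titles and genotype fields, and each would turn if the table names held instead.

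One selector gene, hth, was lower in the crol-KO-labelled libraries at the thresholds of the test, and the other 9 did not pass them. The difference of hth was 3.79-fold. The thresholds were an adjusted p under 0.05 in edgeR's quasi-likelihood test and an absolute log2 fold change above 1, over 12434 tested genes. Of all tested genes 939 were called lower, or 7.55%, and 746 were called higher, or 6.0%. The count of 1 in 10 selector genes is near this background. Upper-quartile scaling turned the split of all calls to 912 higher and 752 lower, and a correction for transcript length to 762 higher and 591 lower. hth was called lower under both.

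The gene hth encodes a TALE homeodomain protein that carries Exd into the nucleus and acts with it on DNA. Its level was 65.9, 86.7 and 64.5 CPM in the wild-type-labelled libraries and 20.4, 19.1 and 17.6 CPM in the crol-KO-labelled ones. The lowest library labelled wild-type lay above every library labelled crol-KO, and the levels within the latter group were close to each other. The log2 fold change was -1.92 (SE 0.151, adjusted p = 0.000204 in edgeR's quasi-likelihood test). Its highest level was in wild-type replicate 2, and without that library the log2 fold change was -1.74 (adjusted p = 0.0001). Under the length correction it was -1.38 (adjusted p = 5.5e-05). An antisense RNA gene, CR44018, overlaps hth in the Release 6 annotation and had 3 to 14 counts per library.

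The partner of Hth did not show such a difference. The gene exd encodes the Drosophila PBC-class TALE homeodomain protein, whose activity is set by its nuclear entry. Its level was 74.8, 69.5 and 81.3 CPM in the wild-type-labelled libraries and 68.3, 73.4 and 71.3 CPM in the crol-KO-labelled ones. The groups overlapped, and the log2 fold change of -0.08 (SE 0.111) was smaller than its standard error.

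The gene tsh encodes a zinc finger protein of the trunk and the proximal appendages that also acts with Hth in the early eye disc. Its level was 16.2, 17.4 and 15.4 CPM in the wild-type-labelled libraries and 14.9, 11.5 and 12.0 CPM in the crol-KO-labelled ones. The groups did not overlap, but crol-KO replicate 1 came close to the wild-type range. Its log2 fold change was -0.35 (SE 0.135, adjusted p = 0.082 in edgeR's quasi-likelihood test), and 0.20 under the length correction.

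Dll, a homeodomain protein of the distal limb, stood at 6.22, 8.76 and 6.40 CPM in the wild-type-labelled libraries and at 4.45, 5.25 and 5.80 CPM in the crol-KO-labelled ones. The groups did not overlap, although the nearest libraries were close, and the log2 fold change was -0.47 (SE 0.188, adjusted p = 0.0867 in edgeR's quasi-likelihood test).

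Among the remaining genes dac had the largest difference in this comparison. It encodes a Ski/Sno-related nuclear protein of the mid-limb, the eye and the mushroom body. Its level was 9.81, 15.8 and 10.9 CPM in the wild-type-labelled libraries and 6.33, 7.86 and 6.04 CPM in the crol-KO-labelled ones. The groups did not overlap, and wild-type replicate 2 stood above the other libraries. The log2 fold change was -0.85 (SE 0.207, adjusted p = 0.0181 in edgeR's quasi-likelihood test), which passed the adjusted p and missed the fold threshold. It was -0.58 without wild-type replicate 2, and the adjusted p was 0.054 without crol-KO replicate 1, 0.072 without crol-KO replicate 3 and 0.33 under the length correction.

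Of the 4 genes of the retinal network, none passed either threshold. The Pax6 gene toy was at 6.48, 6.81 and 5.36 CPM in the wild-type-labelled libraries and at 5.84, 6.60 and 6.09 CPM in the crol-KO-labelled ones, with a log2 fold change of -0.01 (SE 0.150). Its target ey was at 2.22, 2.65 and 1.82 CPM against 2.29, 1.62 and 1.78 CPM, from only 36 to 132 counts per library, with a log2 fold change of -0.23 (SE 0.241). Both groups of libraries overlapped for these genes, which act at the top of the eye program.

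Downstream of them, eya encodes a phosphatase and transcriptional coactivator and so a sine oculis-class homeodomain protein that binds it. The level of eya was 4.82, 6.73 and 4.66 CPM in the wild-type-labelled libraries and 4.68, 4.65 and 3.72 CPM in the crol-KO-labelled ones (log2 fold change -0.31, SE 0.198). The level of so was 3.45, 4.56 and 3.17 CPM against 2.24, 3.52 and 2.33 CPM (log2 fold change -0.46, SE 0.248). The groups overlapped for both genes, through a single library in each case. The gene so overlaps the protein-coding gene CG11145, which had 19 to 51 counts per library, and 3 long noncoding RNA genes in the Release 6 annotation.

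The wing selector ap, a LIM homeodomain gene, was at 18.6, 19.9 and 17.1 CPM in the wild-type-labelled libraries and at 14.9, 13.8 and 13.5 CPM in the crol-KO-labelled ones. These groups did not overlap and each was tight. The log2 fold change was -0.40 (SE 0.112, adjusted p = 0.0288 in edgeR's quasi-likelihood test), again past the adjusted p and under the fold threshold. The adjusted p was 0.074 in the fit with a replicate block and 0.084 with upper-quartile scaling. It also missed 0.05 without wild-type replicate 1, crol-KO replicate 2 or crol-KO replicate 3. Under the length correction the log2 fold change was 0.01.

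**Figure D1:**
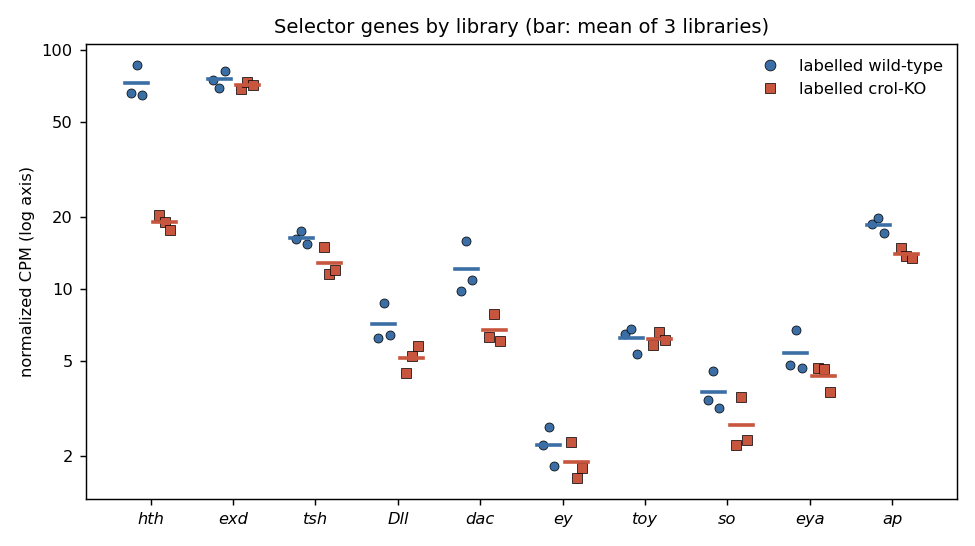
Normalized CPM (log axis) of the 10 selector genes in each of the 6 libraries, with 1 point per library, coloured by labelled genotype, and a bar at each group mean. The groups stand far apart for hth (65.9, 86.7 and 64.5 against 20.4, 19.1 and 17.6 CPM) and lie close together or overlap for the other genes.

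Across the list, 3 of the 10 genes (hth, dac and ap) passed the adjusted p alone in the lower direction, as did 17.8% of all tested genes. The groups did not overlap for 5 genes (hth, tsh, Dll, dac and ap), each lower in the crol-KO-labelled libraries, as for 26.5% of all tested genes. The log2 fold change was negative for all 10, with a median of -0.37, against -0.05 over all tested genes. It was 0.0026 after the length correction, against 0.08 over all tested genes, and exd, tsh, ey, toy and ap then turned positive.

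Transcript length moved with the comparison as a whole. The log2 fold change fell with length across the tested genes (Spearman rho -0.372, a correlation over genes, which are no replicates), and all 10 selector genes are longer than the median tested gene of 1677 bases, with a median of 3242 bases. One library also stood out for the selector genes. The highest of the 6 values was in wild-type replicate 2 for 9 of the 10 genes, all but exd, against 31.5% of all tested genes. Without that library the median over the 10 genes was -0.26, and hth remained the only one called. The part of transcript length or of this library in the differences was not tested.

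**Figure D2:**
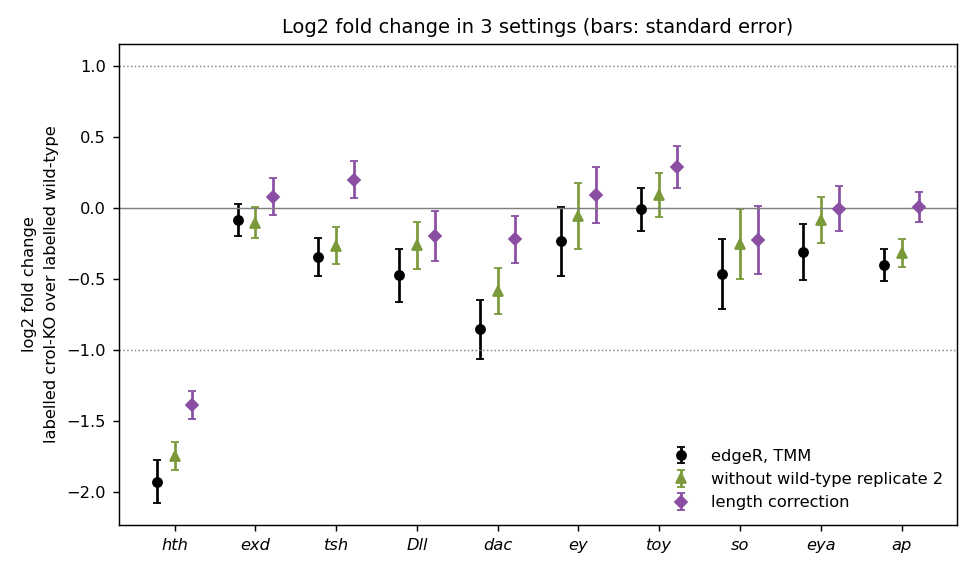
Log2 fold change (labelled crol-KO over labelled wild-type) of the 10 selector genes with bars of 1 SE, in the comparison as reported, under the length correction and without wild-type replicate 2. hth lies at -1.92, -1.38 and -1.74, while the other 9 lie between -0.85 and 0.29.

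The tissues that use these genes did not all move alike. Summed levels of 7 neuron markers, including elav, were 146 to 173 CPM in the wild-type-labelled libraries and 90.2 to 105 CPM in the crol-KO-labelled ones. All 7 had negative log2 fold changes (median -0.93, and -0.28 under the length correction). Of them 2 were called lower, beside 7.55% of all tested genes. Summed levels of 7 disc markers that include wg, dpp and en were 38.2, 53.6 and 38.7 CPM against 41.2, 39.5 and 37.1 CPM, so that the sum overlapped between groups and was highest in wild-type replicate 2. The median over these 7 was -0.32, with 1 called lower, beside the same 7.55%. This median turned to 0.13 with none called under the length correction and to 0.04 without wild-type replicate 2. Of the 3 photoreceptor markers tested, 1 was highest in wild-type replicate 2, as were 31.5% of all tested genes. This was sev, at 16.2 CPM against 4.56 to 6.92 CPM in the other 5 libraries. The marker chp was highest in wild-type replicate 1, at 1.08 CPM against 1.005 CPM in wild-type replicate 2. Midgut markers went the other way, with 5 of 6 called higher, beside 6.0% of all tested genes. Called lower were 1 of 7 muscle, 2 of 5 fat body, 1 of 6 salivary gland and 0 of 3 hemocyte markers. None of these markers was called higher. Log2 fold changes were positive for 4 of the 7 muscle, 3 of the 5 fat body, 3 of the 6 salivary gland and 0 of the 3 hemocyte markers. The medians were 0.18 for muscle, 0.19 for fat body, -0.42 for salivary gland and -0.32 for hemocyte markers. No defining marker of these lists was at 0 in any library. The part of tissue makeup in the levels of the selector genes was not tested.

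To order the genes by abundance per transcript, TPM (transcript abundance scaled to 1000000 per library, which divides by transcript length) was compared within each group. In the wild-type-labelled libraries, exd led at 33.9 ± 3.03 TPM (SD, n = 3), followed by hth at 17.6 ± 6.03 and ap at 5.65 ± 1.40 TPM. tsh, dac and Dll followed at 3.92 ± 0.935, 2.84 ± 1.23 and 2.83 ± 1.12 TPM. toy stood at 2.25 ± 0.641, eya at 1.96 ± 0.794 and so at 1.56 ± 0.587 TPM, and ey was last at 0.793 ± 0.258 TPM. The ranges of neighbours did not overlap between exd and hth, hth and ap, and so and ey, while each other pair of neighbours overlapped.

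In the crol-KO-labelled libraries, exd again led, at 20.1 ± 1.82 TPM (SD, n = 3). The next was hth at 3.13 ± 0.612 TPM, whose range now overlapped that of ap at 2.59 ± 0.539 TPM. tsh was at 1.93 ± 0.530, toy at 1.42 ± 0.0625, Dll at 1.20 ± 0.169 and eya at 0.993 ± 0.197 TPM. The mean of dac was 0.947 ± 0.0808 TPM, below toy and Dll. It did not stand apart from eya, which was above dac in 1 of the 3 libraries only. so and ey closed the order at 0.673 ± 0.0971 and 0.403 ± 0.127 TPM, apart from their neighbours. TPM levels are not set side by side between groups, since on the log2(TPM + 1) scale the median of all tested genes was itself shifted by -0.48 in limma.

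Since Hth and Exd act as a pair, the ratio of their TPM values was taken within each library. This ratio and those of 3 other pairs of partners were chosen after the values had been seen. The ratio of hth to exd was 0.452, 0.658 and 0.424 in the wild-type-labelled libraries and 0.176, 0.153 and 0.137 in the crol-KO-labelled ones. The means were 0.511 ± 0.128 and 0.155 ± 0.0198 (SD, n = 3 each; two-sided exact permutation p = 0.1, which is the lower bound for 3 against 3, and 0.2 after adjustment over the 4 pairs). From expected counts the ratio was 0.974 against 0.269, without overlap as well.

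For Dll over dac the ratio was 1.08, 0.965 and 0.986 against 1.14, 1.10 and 1.62. The groups did not overlap (exact permutation p = 0.1, 0.2 after adjustment), and crol-KO replicate 3 alone stood well above the rest. The Eya and So partners kept no such order, with a ratio of 1.18, 1.29 and 1.27 against 1.88, 1.15 and 1.46 (exact permutation p = 0.4, n = 3 each). For ey over toy it was 0.350 ± 0.0234 against 0.282 ± 0.0778 (exact permutation p = 0.3, n = 3 each). The groups overlapped for both ratios.

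**Figure D3:**
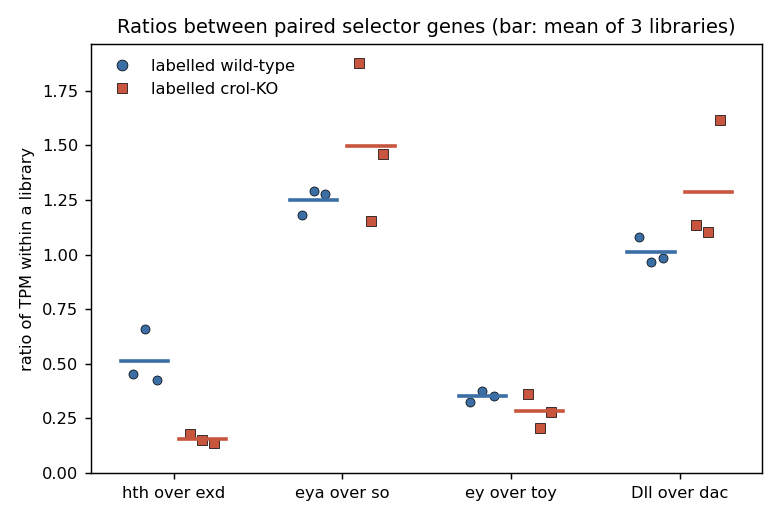
Within-library TPM ratios of 4 pairs of partner genes, with 1 point per library and a bar at each group mean, for the libraries labelled wild-type and crol-KO. The hth to exd ratio lies at 0.424 to 0.658 in the former and 0.137 to 0.176 in the latter.

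The tables also give, for each gene, a transcript length averaged over isoforms by their estimated abundance, which changes when the share of isoforms changes. For hth it was 4822.6, 4741.0 and 4615.1 bases in the wild-type-labelled libraries and 4249.8, 4207.6 and 4442.8 bases in the crol-KO-labelled ones. The groups did not overlap, with a difference of -426.2 bases (two-sided exact permutation p = 0.1, the lower bound with n = 3 each; adjusted p = 0.32). With each library left out in turn, the difference lay between -497.5 and -378.0 bases. Of 6400 tested genes whose averaged length varied, 13.1% were shorter and 11.8% longer in the crol-KO-labelled libraries without overlap. Of the 6400, 79, or 1.23%, were shorter by as much as hth or more. That count is in bases and not relative to length. The mean length of hth was 4513 bases, against a median of 1677 over all tested genes, so most genes had less length to lose.

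In the Release 6 annotation hth has transcripts of 4226 bases (RA, 472 residues), 6557 bases (RC, 487 residues), 3868 bases (RE), 2462 bases (RF) and 6340 bases (RI), and the latter 3 each encode 266 residues. The shorter Hth proteins lack the homeodomain and retain the domain that binds Exd. Long and short transcripts occur for both kinds of protein, so the averaged length does not say which isoforms changed.

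None of the other selector genes with a varying length separated the groups. The differences were -4.2 bases for exd, 2.7 for dac, 101.2 for Dll, 153.5 for ey, -108.8 for toy, -102.1 for eya and 108.8 for ap (exact permutation p of 0.2 to 0.8, n = 3 each). In crol-KO replicate 1 the averaged length of Dll was 3094.0 bases, the length of its RA transcript alone. The genes tsh and so have a single length, of 4732 and 2786 bases.

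**Figure D4:**
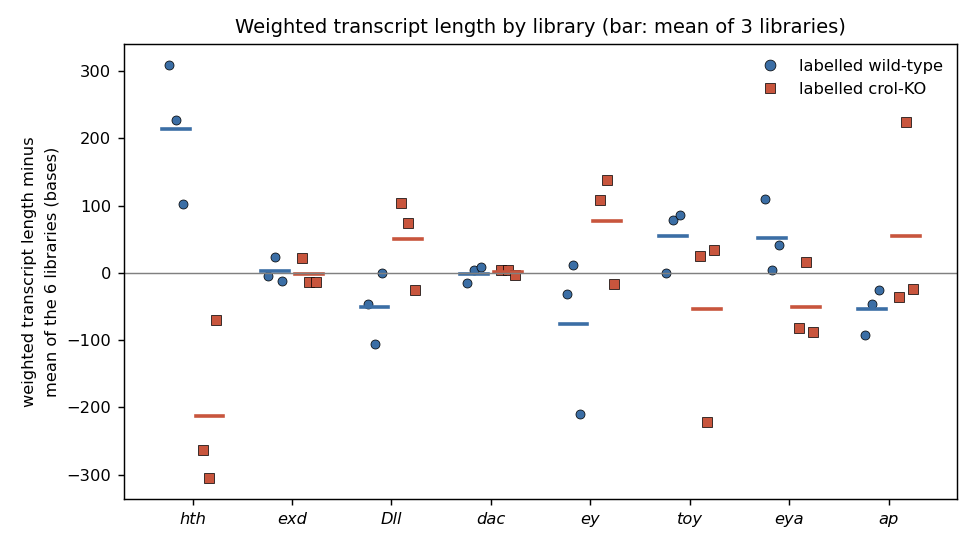
Averaged transcript length of each selector gene in each library, as the difference in bases from its mean over the 6 libraries, coloured by labelled genotype. For hth the 3 libraries labelled crol-KO lie below the 3 labelled wild-type, and for no other gene are the groups apart.

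To place hth among other genes, the profile over the 6 libraries (log2 of CPM + 0.5, centred on the gene's mean) was compared with those of 10947 other genes by Euclidean distance. The nearest was rin, which encodes the G3BP homologue of stress granules, at 0.236. It was followed by the noncoding RNA gene CR45102 at 0.273, Ssdp at 0.299, Claspin, of the replication checkpoint, at 0.332, and kuz, an ADAM metalloprotease of the Notch pathway, at 0.355. Their log2 fold changes were -1.95, -1.99, -1.72, -2.46 and -1.73, each called lower. This follows from the choice of genes by their likeness to hth over the same libraries and is no separate result. Under the length correction kuz no longer reached the fold threshold. Ssdp encodes a partner of Chi, the LIM-domain binding cofactor of Ap.

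Related genes were taken as 4 lists. Those for the antenna and leg, the wing and the eye hold genes that work with the selectors in the same discs. The list of other TALE homeodomain genes was chosen by protein family. Of 15 genes that pattern the antenna and the leg, 3 were called lower and none higher, with a median log2 fold change of -0.68 and 12 genes lower without overlap, beside 7.55% called lower and 26.5% lower without overlap among all tested genes. Without wild-type replicate 2 the median was -0.45, with 2 called. The first of them, ct, a homeodomain gene of the antenna and sensory organs, was at 24.6, 47.9 and 24.4 CPM in the wild-type-labelled libraries and 11.2, 9.79 and 10.5 CPM in the crol-KO-labelled ones (log2 fold change -1.62, SE 0.268, adjusted p = 0.0041 in edgeR's quasi-likelihood test). Within its group it was highest in wild-type replicate 2, far above the other wild-type-labelled libraries.

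The LIM homeodomain gene Lim1, of the distal leg and antenna, was at 4.38, 4.62 and 3.87 CPM against 1.34, 1.57 and 1.54 CPM (log2 fold change -1.54, SE 0.186, adjusted p = 0.0011 in edgeR's quasi-likelihood test). bab1, a BTB protein gene of the tarsus, was at 1.08, 1.33 and 1.07 CPM against 0.309, 0.653 and 0.545 CPM (log2 fold change -1.22, SE 0.340, adjusted p = 0.029 in edgeR's quasi-likelihood test). The groups were apart for both, but the call of bab1 was lost without wild-type replicate 1 or 2 or crol-KO replicate 1 or 3, under the length correction and in the fit with a replicate block (adjusted p = 0.059). Its relative bab2 and the zinc finger gene disco-r passed the adjusted p alone, at 1.69-fold and 1.89-fold lower. Values were highest in wild-type replicate 2 for 13 of the 15, and under the length correction the median was -0.13 with 1 called lower and ct at -0.53.

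Of 10 partners and targets of the wing selectors, 2 were called lower and none higher, beside 7.55% and 6.0% of all tested genes. The median was -0.59, or -0.37 without wild-type replicate 2. Ssdp was at 30.4, 41.1 and 30.5 CPM in the wild-type-labelled libraries and at 11.8, 9.63 and 9.51 CPM in the crol-KO-labelled ones (log2 fold change -1.72, SE 0.163, adjusted p = 0.00043 in edgeR's quasi-likelihood test). zfh2, a homeodomain zinc finger gene of the proximal wing, was at 24.2, 42.5 and 22.3 CPM against 10.8, 9.66 and 11.3 CPM (log2 fold change -1.49, SE 0.246, adjusted p = 0.0040 in edgeR's quasi-likelihood test). The groups were apart for both. The Ap targets fng, a glycosyltransferase of Notch, Ser, a Notch ligand, and mew, an integrin subunit, passed the adjusted p alone, at 1.37-fold, 1.67-fold and 1.71-fold lower. So did sd and Bx, at 1.36-fold and 1.79-fold lower, so that 7 of 10 passed it in the lower direction, beside 17.8% of all tested genes. Chi, the cofactor of Ap, was the 1 gene of the 10 with a positive log2 fold change. It was at 17.3, 19.2 and 20.8 CPM against 24.7, 25.9 and 22.4 CPM, without overlap (log2 fold change 0.35, adjusted p = 0.052 in edgeR's quasi-likelihood test). Under the length correction the median was -0.12 and 1 of the 10, Ssdp, was called, with zfh2 at -0.41.

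Of 11 eye determination partners 9 could be tested, and 1 was called lower, which is near the 7.55% of all tested genes. This was oc, a homeodomain gene of the ocelli and the dorsal head, at 2.07, 3.16 and 2.41 CPM against 0.900, 0.992 and 0.793 CPM without overlap (2.83-fold lower, SE 0.251 on the log2 scale, adjusted p = 0.0042 in edgeR's quasi-likelihood test). Its log2 fold change was -0.91 under the length correction and -0.49 in limma on log2(TPM + 1), below the threshold in each. The median of the list was -0.15, but 0.10 under the length correction and 0.0006 without wild-type replicate 2. Six4, with 7 to 10 counts, and ro, with 3 to 11, were too low to test.

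Of 5 other TALE homeodomain genes, the family of Hth and Exd, none passed both thresholds, and the median of -0.10 turned to 0.15 under the length correction and 0.05 without wild-type replicate 2. The closest was achi, at 7.56, 8.90 and 7.07 CPM in the wild-type-labelled libraries and 16.3, 15.2 and 15.3 CPM in the crol-KO-labelled ones, in the direction opposite to hth (log2 fold change 0.99, SE 0.128, adjusted p = 0.0015 in edgeR's quasi-likelihood test). The groups were apart, and achi was called higher with DESeq2 size factors, with upper-quartile scaling, in DESeq2 and under the length correction. It has a near-identical copy, vis, so that the division of counts between both genes is uncertain.

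**Figure D5:**
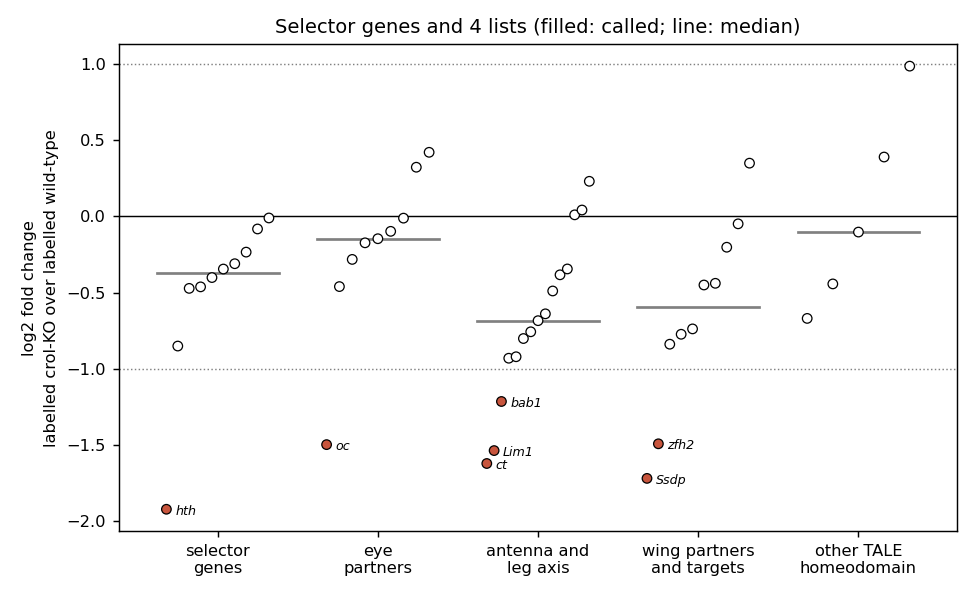
Log2 fold change (labelled crol-KO over labelled wild-type) of each tested gene of the selector list and the 4 lists of related genes, with 1 point per gene, the list's median as a bar and the fold thresholds as lines. The medians are -0.37 for the selector genes, -0.15 for eye partners, -0.68 for antenna and leg genes, -0.59 for wing genes and -0.10 for other TALE genes, and those of the selector genes, eye partners and other TALE genes turn to 0.0026, 0.10 and 0.15 under the length correction.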

How the data were processed

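RNA from 6 libraries was measured with a directional kit, and per the labels and methods the authors trimmed reads with Trim Galore 0.6.1, aligned them with STAR 2.7.3a to dm3 and ran RSEM 1.3.2 on RefSeq transcripts. The deposited expected counts are estimates per gene, not scaled to depth, and the authors' TPM values are scaled to 1000000 per library. The other deposited values used are the RSEM gene lengths. The deposited FPKM values were not used. Whether RSEM used the strand, and whether a count is a read pair or a single read, was not settled. Shared reads of isoforms and paralogs are divided by RSEM's model.

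Expected counts were rounded to whole numbers. Genes that reached 10 counts in 3 or more libraries entered a test over all 6 libraries with edgeR 4.0.16 in R 4.3.3 (TMM, quasi-likelihood test, Benjamini-Hochberg adjustment over all tested genes, no block). Calls needed an adjusted p below 0.05 and a log2 fold change beyond 1 in either direction, and all directions are labelled crol-KO over labelled wild-type. SE is the log2 fold change divided by the square root of F. Averaged lengths and ratios were compared with exact permutation tests, adjusted over the selector genes or the 4 pairs. Alternatives were DESeq2 1.42.0, other scalings, limma 3.58.1 on TPM values in log2 with 1 or 0.1 added, other count filters, a replicate block, omission of each library, other thresholds, and a length correction (the lowess trend of each library over log2 length, span 0.3, as an offset).

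Nothing says that the replicates came from separate crosses, so p-values measure the spread between these libraries. Groups came from titles and genotype fields. The members and lists were chosen with earlier results of these data known. Named genes are all selector genes, the called members of each list (at most 4 in each direction), the 5 profiles nearest to hth whose mean reached 1 CPM, and crol and w; other list genes and markers with values were chosen after their values were seen. The edgeR fit was tested on simulated data. Transcripts and overlaps come from the Release 6 annotation, and promoter sequences were not analysed here.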

Additional observations from a re-analysis of the deposited data

How the results depend on the processing

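hth was called lower under every alternative run, with log2 fold changes of -2.41 to -1.38. The counts of all genes called lower were 1689 in limma on log2(TPM + 1), 3139 on log2(TPM + 0.1), 591 and 526 under the length correction without and with the replicate block, 2212 with no fold threshold and 583 at an adjusted p under 0.01, and 576 to 1089 with 1 library left out. Those called higher were 175, 247 and, with no fold threshold, 1900. Of the selector genes, 5 were called lower on log2(TPM + 0.1) and 3 with no fold threshold. Of the antenna and leg genes it was 8 and 5, 1 and 1 under the length corrections, and 2 to 5 with 1 library left out. Of the wing genes it was 7 and 7, and 1 and 1 under the length corrections. Of the eye partners it was 0 in limma on log2(TPM + 1) and 0 and 0 under the length corrections. Of the other TALE genes 1 was called lower on log2(TPM + 0.1), and 1 higher (achi) with DESeq2 size factors, upper-quartile scaling, DESeq2, either length correction or no fold threshold, and 0 to 1 with 1 library left out. Log2 fold changes that turned positive under the length correction, without and with the block, were 0.079 and 0.085 for exd, 0.20 and 0.21 for tsh, 0.093 and 0.087 for ey, 0.29 and 0.28 for toy, and 0.0087 and 0.012 for ap. exd was at 0.036 with upper-quartile scaling and -0.10 to 0.041 with 1 library left out. toy was at 0.023 with DESeq2 size factors, 0.11 with upper-quartile scaling, 0.022 in DESeq2 and -0.061 to 0.095 with 1 library left out. Differences of averaged length ran from -15.9 to 6.3 bases for exd and -4.5 to 7.4 for dac. The median over the selector genes was -0.73 and -1.02 on the TPM scales, where all genes were shifted by -0.48 and -0.67. The cause was not tested.

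Deviations of same-numbered libraries correlated at 0.015, -0.316 and -0.052, so no pairing by replicate number was seen. With 3 libraries per group this cannot show whether the libraries were handled in pairs. In the fit with a replicate block, 682 genes were called higher and 809 lower, and 1 selector gene (hth, log2 fold change -1.91), and the call of bab1 was lost. With upper-quartile scaling the median of the other TALE genes was 0.02, and it was 0.03 without wild-type replicate 3. Depth limits ey and so most, and 3 libraries per group cannot give an exact p under 0.1.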
